A study of Onthophagus taurus with 60 samples.

Results

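The abdominal support structures of the beetle Onthophagus taurus were compared with its true wing, by setting the 6 support structure libraries against the wing libraries of the second thoracic segment (T2). These tissues account for 18 of the 60 sequenced samples, 6 of support structures and 12 of T2 wing. The 12 wing columns were summed in pairs, column k with column k+6, to 6 libraries. All samples were epidermis of male prepupae, the stage at the end of larval life, and polyadenylated RNA was sequenced. The support structures are paired outgrowths dissected from several abdominal segments, labelled abdominal epithelium, and each is 1 library per replicate. The thoracic horn (6 samples) and the carinated margin (12 samples, summed to 6 libraries in the same way) both come from the prothorax and served to place the differences. The T2 wing, like the carinated margin, was sequenced from the left and right sides of the same individuals, and the labels do not say which column is which side. No age, rearing condition, strain or number of animals per library is given in the labels, which name no treatment and no altered allele. The sources used here pair transcripts with locus numbers and not with protein names, so tissue markers could not be checked and nothing below assigns a function to a locus number.

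Insect wings form on the thoracic segments behind the prothorax, and in other segments Hox genes hold back or redirect the tissue that would make them. In several beetles and other insects, outgrowths of the prothorax and abdomen depend on genes that also build the wing, and for this reason have been proposed as wing serial homologs, that is, as the same structure repeated in another segment and altered. In the mealworm beetle Tenebrio molitor, small jaw-like structures along the sides of the pupal abdomen are one such case. In Onthophagus taurus the thoracic horn is an outgrowth of the prothoracic epidermis that forms in the prepupa, is present in the pupa and is resorbed before the adult emerges.

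The support structure libraries held 14.87 to 21.41 mega-counts (M), against 29.39 to 35.57 M in the summed wing libraries. The horn libraries held 13.11 to 16.63 M and the summed carinated margin libraries 28.53 to 37.86 M, so depth went with tissue. Scaling factors by the trimmed mean of M-values (TMM) also went with tissue and ran from 0.904 to 1.06 in support structures, 0.471 to 0.570 in horn, 0.822 to 1.03 in carinated margin and 0.977 to 1.08 in wing. Same-numbered libraries of support structures and wing deviated together from their tissue means, at r = 0.213 to 0.299 across transcripts, against at most 0.0279 for other numbers. Levels below are TMM-scaled counts at a common library total (CPM), which are not divided by transcript length. Differences are log2 of support structures over wing, so a positive value is higher in support structures. Most carry a standard error (SE), which is the size of the difference divided by the square root of the test's F statistic. It was not taken from the fit itself. Where a tissue has few counts, the difference depends on the prior count that the fit adds, and the SE does not measure its precision.

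Support structures and wing differed in a large part of the transcripts tested, with large differences mostly on the side of higher levels in support structures. Of 13272 transcripts tested by edgeR's quasi-likelihood test with replicate number as a block, 5669 (42.7%) passed a Benjamini-Hochberg adjusted p of 0.05. Of these 2749 (20.7% of those tested) were higher and 2920 (22.0%) lower in support structures than in wing. At 2-fold or more the directions were no longer alike, with 1745 higher (13.1%) and 807 lower (6.08%). The median difference of the calls was 1.43 on the log2 scale among those higher and 0.68 in size among those lower. Below 2-fold there were 1004 calls higher and 2113 lower, and at a log2 difference of 6 or more there were 263 higher and 30 lower. Across all 13272 transcripts the median difference was -0.09.

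The calls were mostly alike from pair to pair. The difference had the same sign in all 6 pairs for 5256 of the 5669 calls (92.7%). The calls were chosen by a paired test on these same pairs, so this share follows in part from the choice. It was not computed over all tested transcripts. The 6 support structure libraries lay wholly above or wholly below the 6 wing libraries for 2962 calls (52.2%). Over the 13272 transcripts tested this held for 3035 (22.9%), nearly all of them calls. The shares are thus not independent, and this separation too follows in part from the choice. Among the calls, 35 transcripts higher in support structures had 0 counts in all 6 wing libraries, and 8 lower ones had 0 counts in all 6 support structure libraries. These are bulk tissues, so that fewer cells of a type and less RNA per cell cannot be told apart.

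**Figure D1:**
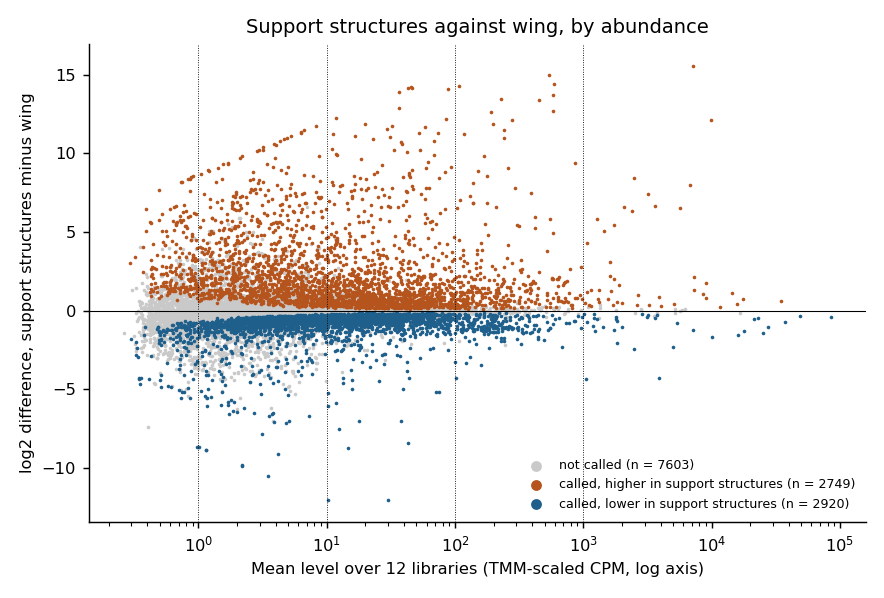
Difference of each of the 13272 tested transcripts (vertical axis, log2 of support structures over wing) against its mean level over both tissues (horizontal axis, CPM on a log scale), with the 2749 transcripts called higher, the 2920 called lower and the rest in separate colours. Differences of large size lie mostly above 0, and the largest ones belong to transcripts with few or no counts in wing, whose plotted value depends on the prior count of the fit.

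The share of transcripts called grew with abundance, from class to class of mean CPM over the 12 libraries. Below 1 CPM 321 of 1579 transcripts were called (20.3%), between 1 and 10 CPM 2446 of 6791 (36.0%), and between 10 and 100 CPM 2311 of 4130 (56.0%). Between 100 and 1000 CPM 510 of 674 were called (75.7%), and at 1000 CPM and over 81 of 98 (82.7%, exact binomial 95% interval 73.7 to 89.6%). That interval takes transcripts as independent, although all come from the same 12 libraries. A rarer transcript has fewer counts and so a smaller chance of passing the test at the same difference, and this part of the trend was not tested.

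Direction did not follow abundance in step. Calls higher in support structures were 188 of 321 below 1 CPM (58.6%), 1080 of 2446 between 1 and 10 CPM (44.2%) and 1144 of 2311 between 10 and 100 CPM (49.5%). In the upper classes they were 291 of 510 (57.1%) and 46 of 81 (56.8%). Counting calls of at least 2-fold, higher ones outnumbered lower ones in each class, with 182 against 111, 808 against 367, 563 against 212, 166 against 102, and 26 against 15. Between 1 and 10 CPM the calls lower in support structures were small: their median size was 0.73, against 1.88 for the calls higher there.

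**Figure D2:**
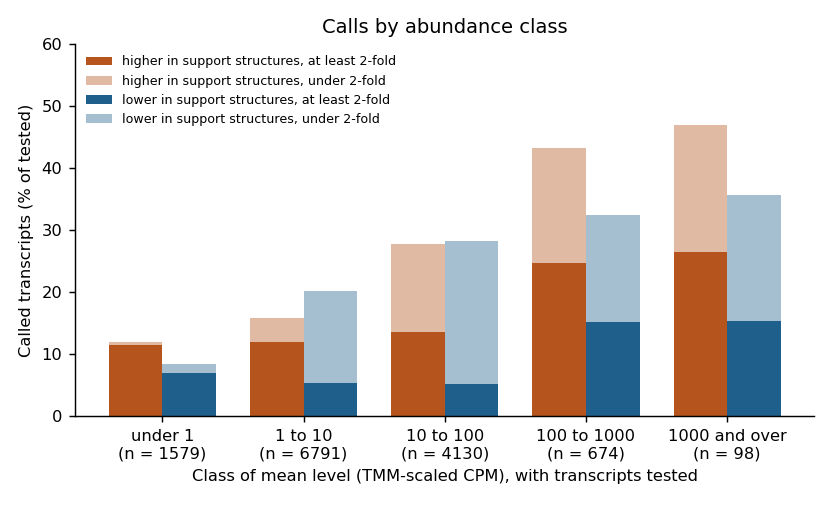
Percent of tested transcripts called higher and called lower in support structures than in wing (vertical axis) in each class of mean CPM (horizontal axis), with the part of at least 2-fold marked. The share called goes from 20.3% below 1 CPM to 82.7% at 1000 CPM and over, and calls of at least 2-fold are more often higher than lower in each class.

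In terms of the RNA sampled, the transcripts of at least 2-fold took up very different parts of the libraries. These are shares of all counts of a library, so they correspond to total-count scaling and leave out the TMM factors. The 1745 higher transcripts held 25.9 to 31.0% of the counts in support structures (median 28.5%) and 5.17 to 6.31% in wing (median 5.67%). This follows from how they were chosen, but their shares elsewhere do not: 28.1 to 31.6% in horn (median 28.8%) and 7.4 to 9.03% in carinated margin (median 7.92%). The horn share came mostly from a few transcripts. The 10 with the most counts in horn held 21.2% there at the median, 8.66% in support structures, 1.26% in carinated margin and 0.851% in wing. Without these 10, the other 1735 held 19.3% in support structures, 7.96% in horn, 6.83% in carinated margin and 4.83% in wing. The 10 stay in the totals of which these are shares. They were picked by their horn counts, so the fall of the horn share without them follows in part from that choice.

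The 807 transcripts lower in support structures held 6.98 to 11% of the counts there (median 7.86%) and 21.1 to 28.9% in wing (median 21.8%). Horn lay between them at 12.2 to 17.1% (median 14%), and carinated margin at 18 to 23.5% (median 18.9%). The 10 of these with the most counts in horn held medians of 11.3% in horn and 5.77% in support structures. In carinated margin they held 14.5% and in wing 15.9%. They thus made up most of the share of the lower group in each of these tissues. In the higher group this held for the horn alone. Without the 10 with the most counts in horn, the other 797 held medians of 2.08% in support structures and 2.72% in horn. They held 4.72% in carinated margin and 5.94% in wing, with the 10 still in the totals. As a share of all counts, horn then lay nearer support structures. Since the 10 were picked by their horn counts, the fall of the horn share follows in part from that choice. These shares leave out the low TMM factors of the horn, and its place with those factors was not computed. By this measure the carinated margin stood nearer the wing than the support structures for both groups of transcripts. For the higher group the place of the horn changed without the 10 transcripts picked by their horn counts.

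**Figure D3:**
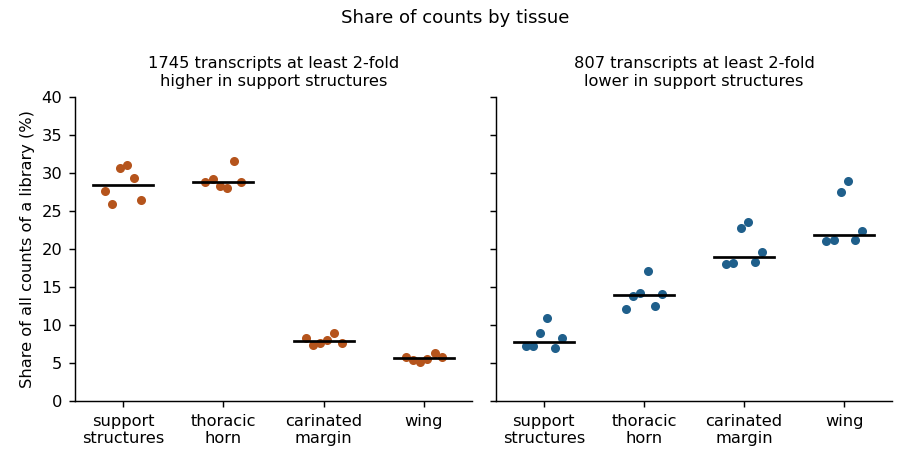
Percent of a library's counts (vertical axis) held by the 1745 transcripts higher and the 807 lower by at least 2-fold in support structures than in wing, 1 point per library, for support structures, thoracic horn, carinated margin and T2 wing. For the higher group, support structures and horn lie at 25.9 to 31.6% and carinated margin and wing at 5.17 to 9.03%; for the lower group, wing has the highest median.

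Among the transcripts of 1000 CPM and over, the largest differences belonged to 2 neighbouring genes that were nearly silent in wing. LOC111428488 (XM_023064026.1) stood at 10043 CPM in the lowest support structure library, 14450 at the median and 17646 in the highest, against 0.0575, 0.278 and 0.645 CPM in wing. Its log2 difference was 15.56 (SE 0.41, adjusted p = 4.0e-06, edgeR quasi-likelihood test). In horn it was higher still, at 35313, 43630 and 49962 CPM, and in carinated margin it reached 110, 453 and 821 CPM, so that all 4 tissues were separate from each other. Its neighbour LOC111428486 (XM_023064023.1) had 14818, 20172 and 24097 CPM in support structures, 71848, 83159 and 88661 CPM in horn, 450, 1274 and 2347 CPM in carinated margin, and 2.07, 4.59 and 7.48 CPM in wing. The order of the tissues was the same as for LOC111428488, and the log2 difference between support structures and wing was 12.12 (SE 0.29, adjusted p = 3.4e-06, edgeR). Both genes, with LOC111428487 beside them, formed a run of 3 adjacent genes that were called higher by at least 2-fold. Expected counts can divide reads between near-identical neighbours, so the levels of single genes in such a run are less certain than that of the run.

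Both named transcripts of 1000 CPM and over on the other side were strongly lower in support structures. LOC111427831 (XM_023063173.1) had 223, 398 and 645 CPM in support structures, against 6406, 7066 and 9439 CPM in wing, a log2 difference of -4.24 (SE 0.18, adjusted p = 1.2e-05, edgeR). In horn it stood at 7281, 8985 and 13540 CPM and in carinated margin at 8319, 10883 and 13253 CPM, so the support structures were the tissue apart, with no overlap with the other 3. LOC111422692 (XM_023055910.1) behaved alike, with 25.7, 98.0 and 486 CPM in support structures and 1223, 1498 and 3568 CPM in wing (log2 difference -4.33, SE 0.46, adjusted p = 0.00054, edgeR). It had 1416 to 3099 CPM in horn and 1034 to 2482 CPM in carinated margin.

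Between 100 and 1000 CPM, the 2 transcripts named for the largest differences were far higher in horn than in support structures. This did not hold for the class as a whole. Of its 166 transcripts higher by at least 2-fold, 81 were nearer support structures in horn and 55 nearer wing, by the midpoint test described below. LOC111420100 (XM_023053048.1) had 550, 1051 and 2095 CPM in support structures and at most 0.113 CPM in wing, with 10 counts in the 6 wing libraries together. In horn it stood at 79024, 91967 and 110975 CPM, far above the support structures, and in carinated margin at 0.732 to 4.28 CPM. The log2 difference between support structures and wing was 14.40 (SE 0.49, adjusted p = 6.0e-06, edgeR). LOC111418544 (XM_023051091.1) showed the same order, with 119, 1153 and 1530 CPM in support structures, 26171 to 39227 CPM in horn, 0.233 to 3.91 CPM in carinated margin and at most 0.139 CPM in wing (log2 difference 14.96, SE 0.45, adjusted p = 5.4e-06, edgeR). One support structure library, replicate 2, was the low one at 119 CPM.

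In the same class, LOC111427828 (XM_023063172.1), which lies next to LOC111427831, was lower in support structures. It had 19.7, 24.6 and 43.2 CPM there, against 254, 303 and 329 CPM in wing (log2 difference -3.46, SE 0.13, adjusted p = 7.0e-06, edgeR). Carinated margin, at 818 to 1262 CPM, and horn, at 516 to 765 CPM, both lay above the wing. LOC111414687 (XM_023046090.1) was graded, with 39.9, 62.0 and 74.9 CPM in support structures, 89.6 to 250 CPM in horn, 174 to 226 CPM in carinated margin and 254, 310 and 358 CPM in wing (log2 difference -2.37, SE 0.10, adjusted p = 1.2e-05, edgeR). Horn and carinated margin overlapped for this transcript.

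Between 10 and 100 CPM, the transcripts of largest difference had few or no counts in one of the tissues. LOC111413927 (XM_023045072.1) had 73.8, 87.1 and 94.1 CPM in support structures and 0 counts in all 6 wing libraries. Set against a floor of 3 counts over the 6 wing libraries, it was at least 5973-fold higher in support structures, and it passed the test at an adjusted p of 0.0041 (edgeR). Carinated margin had 7.21 to 29.8 CPM, and horn had 5 counts in all. LOC111427029 (XM_023061976.1) had 62.0, 75.9 and 82.5 CPM in support structures, 31.6 to 50.7 CPM in horn, 25.5 to 38.6 CPM in carinated margin and 0 counts in wing. It was at least 5073-fold higher in support structures than in wing, by the same floor (adjusted p = 0.0042, edgeR). The gene has another tested transcript, and its sum differed by 7.97 on the log2 scale, a smaller difference than the bound for this transcript.

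On the other side, LOC111425424 (XM_023059423.1) had 0 counts in all support structure libraries and all horn libraries, against 14.8, 18.1 and 31.4 CPM in wing. It was at least 696-fold lower in support structures than in wing (adjusted p = 0.0085, edgeR), and carinated margin lay between at 0.765 to 5.49 CPM. The gene, with 2 tested transcripts, differed by -5.70 in sum. LOC111420652 (XM_023053690.1) had 1 count in the 6 support structure libraries together and 25.6, 48.9 and 134 CPM in wing (adjusted p = 5.4e-06, edgeR). It was low in horn, at 0 to 1.61 CPM, and in carinated margin, at 0.341 to 3.96 CPM, so that it stood high in wing alone of these 4 tissues.

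Between 1 and 10 CPM the transcripts of largest difference were those read in 1 tissue of the pair. LOC111419116 (XM_023051881.1) had 11.7, 17.2 and 20.8 CPM in support structures, and LOC111424902 (XM_023058626.1) had 6.10, 14.3 and 19.2 CPM there. Both had 0 counts in all horn, carinated margin and wing libraries. Against wing they were at least 1161-fold and 942-fold higher (adjusted p = 0.0089 and 0.010, edgeR). LOC111414353 (XM_023045672.1) had 0 counts in support structures and horn, 0.165 to 0.896 CPM in carinated margin and 3.11 to 6.32 CPM in wing, at least 152-fold lower in support structures than in wing (adjusted p = 0.021, edgeR), and its gene sum differed by -7.08 on the log2 scale. LOC111416097 (XM_023048045.1) had 0 counts in support structures, 0.400 to 46.8 CPM in horn, 0.0602 to 2.15 CPM in carinated margin and 0.729 to 3.62 CPM in wing (adjusted p = 0.036, edgeR), at least 69.8-fold lower in support structures than in wing. That call was lost without replicate 3.

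Below 1 CPM, LOC111425057 (XM_023058815.1) and LOC111427775 (XM_023063076.1) had 0.744 to 2.79 CPM and 0.875 to 3.10 CPM in support structures and 0 counts in horn and in wing. They were at least 129-fold and 122-fold higher in support structures than in wing (adjusted p = 0.034 and 0.035, edgeR). In carinated margin they had 4 and 26 counts. On the lower side, LOC111413629 (XM_023044666.1) had 0 counts in support structures and 1.35 to 2.96 CPM in wing (adjusted p = 0.036, edgeR), but its gene as a whole differed by only -0.46 on the log2 scale. LOC111428104 (XM_023063500.1) had counts in 1 support structure library alone and 0.587 to 2.53 CPM in wing (log2 difference -5.56, SE 1.29, adjusted p = 0.014, edgeR). It was highest in carinated margin, at 4.40 to 8.75 CPM, its gene sum differed by -2.23, and its call was lost without replicate 5.

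**Figure D4:**
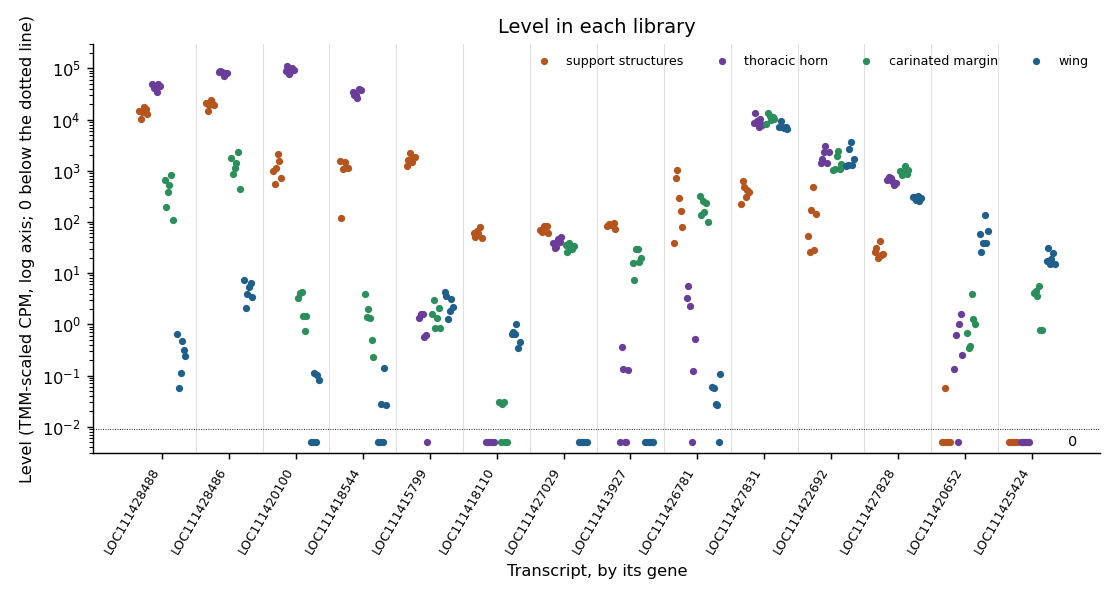
Levels of named transcripts in each library (CPM on a log scale; 1 point per library), for support structures, thoracic horn, carinated margin and T2 wing. LOC111428488 and LOC111428486 are highest in horn and lowest in wing, LOC111415799 is high in support structures alone of the 4 tissues, and LOC111427831 is low in support structures alone.

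Some of the genes that differed by at least 2-fold in the same direction lay side by side in the gene table. Of 1124 genes higher in support structures, 265 (23.6%) stood in 118 runs of adjacent genes, and of 587 lower genes, 87 (14.8%) stood in 41 runs. Runs of 3 or more numbered 20 among the higher genes and 5 among the lower ones. Chance adjacency was not computed. Neighbours with near-identical sequence may share reads, and no sequence was used to check this.

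The longest run was 9 genes, all higher in support structures than in wing, and its members differed widely in level. LOC111421916 (XM_023055119.1) was the most abundant, at 8915, 11622 and 16636 CPM in support structures, 6520 to 10264 CPM in horn, 3940 to 6371 CPM in carinated margin and 2105, 2492 and 3743 CPM in wing. All 6 support structure libraries lay above the wing libraries, and the log2 difference was 2.16 (SE 0.13, adjusted p = 4.3e-05, edgeR). LOC111422095 (XM_023055310.1) had 1259, 2512 and 3427 CPM in support structures, 198 to 740 CPM in horn, 16.3 to 109 CPM in carinated margin and 19.4, 45.2 and 58.9 CPM in wing (log2 difference 5.82, SE 0.11, adjusted p = 1.4e-06, edgeR). Its levels in carinated margin and wing overlapped, and horn stood between them and the support structures.

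LOC111421907 and LOC111422129 were far higher in support structures than in the other 3 tissues. LOC111421907 (XM_023055108.1) had 70.4, 143 and 351 CPM in support structures, 1.47 to 18.2 CPM in horn, 4.17 to 15.3 CPM in carinated margin and 0.517 to 4.11 CPM in wing (log2 difference 6.47, SE 0.43, adjusted p = 7.3e-05, edgeR). LOC111422129 (XM_023055360.1) had 156, 353 and 682 CPM in support structures, 2.94 to 9.55 CPM in horn, 8.88 to 23.9 CPM in carinated margin and 4.38 to 20.6 CPM in wing (log2 difference 4.78, SE 0.40, adjusted p = 0.00020, edgeR). LOC111421898 (XM_023055098.1) was less confined, at 353 to 521 CPM in support structures, 155 to 305 CPM in horn, 54.3 to 162 CPM in carinated margin and 38.1 to 137 CPM in wing (log2 difference 2.78, SE 0.22). The other 4 members, LOC111422028, LOC111422090, LOC111422079 and LOC111422058, had at most 17.2 CPM in any support structure library and at most 0.567 CPM in any wing library, with log2 differences of 4.80, 4.78, 3.82 and 3.53. LOC111422079 had a higher median in horn, at 2.70 CPM, than in support structures, at 1.48 CPM, while the other 3 had horn medians of at most 0.534 CPM. For LOC111422058 the call was lost without replicate 3.

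Among the lower genes the longest runs were 5 of 3 genes each, and the run of LOC111421103, LOC111420652 and LOC111421093 had the largest summed size of difference. LOC111421103 (XM_023054237.1) had 0.335, 1.49 and 5.36 CPM in support structures, 37.6 to 50.2 CPM in horn, 2.48 to 9.18 CPM in carinated margin and 8.33, 10.5 and 19.2 CPM in wing (log2 difference -3.16, SE 0.63, adjusted p = 0.0073, edgeR). LOC111421093 (XM_023054225.1) had 2.48 to 3.87 CPM in support structures, 0.255 to 3.88 CPM in horn, 4.52 to 9.25 CPM in carinated margin and 4.36 to 8.26 CPM in wing (log2 difference -1.02, SE 0.20, adjusted p = 0.0068, edgeR). The 3 neighbours thus shared their direction between support structures and wing and not their place in the horn.

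Few genes carried a symbol other than a locus number, and these symbols appeared to be shortened in the gene table. Of 43 tested transcripts of 32 such genes, 10 were called higher and 10 lower, near the 20.7% and 22.0% of all transcripts, with a median difference of -0.06. MR had 4 transcripts called higher by at least 2-fold, and XM_023044477.1 differed most: 66.8, 126 and 206 CPM in support structures, 0 to 38.9 CPM in horn, 3.07 to 12 CPM in carinated margin and 4.83, 7.95 and 11.1 CPM in wing (log2 difference 4.02, SE 0.21, adjusted p = 2.8e-05, edgeR). For the other 3 the log2 differences were 1.61, 1.49 and 1.00, and 1.69 for all transcripts of the gene summed (adjusted p = 3.9e-06, edgeR). MR also had tested transcripts that did not pass. XM_023044476.1, at a mean of 55.7 CPM, differed by 0.42 (adjusted p = 0.31, edgeR). XM_023044481.1 differed by 2.39 (adjusted p = 0.054, edgeR).

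MSB (XM_023058788.1) set the support structures apart from the other 3 tissues, with 149, 184 and 282 CPM in support structures, 48.4 to 68.6 CPM in horn, 49.7 to 63.1 CPM in carinated margin and 45.2, 57.7 and 61.6 CPM in wing (log2 difference 1.81, SE 0.18, adjusted p = 0.00038, edgeR). REPTOR-B (XM_023061826.1) instead grouped support structures with horn: it had 10.2, 13.7 and 20.4 CPM in support structures, 10.8 to 16.6 CPM in horn, 2.86 to 7.63 CPM in carinated margin and 2.99, 4.10 and 5.37 CPM in wing (log2 difference 1.78, SE 0.11, adjusted p = 5.1e-05, edgeR). CRM (XM_023059892.1) was lower in support structures, at 2.87 to 5.28 CPM, and in horn, at 1.53 to 6.83 CPM, than in carinated margin, at 7.14 to 11.1 CPM, and in wing, at 8.97 to 12.6 CPM (support structures over wing, log2 difference -1.60, SE 0.10, adjusted p = 5.7e-05, edgeR). Summed over transcripts, CRM differed by -0.84 (adjusted p = 0.00087, edgeR), and its other tested transcript, XM_023059891.1, had a difference of 1.68 that did not pass the test (adjusted p = 0.10, edgeR). CB (XM_023050387.1), at 0.516 to 2.48 CPM in support structures and 0.117 to 0.783 CPM in wing, was called higher at an adjusted p of 0.043 (edgeR), with 5 of 6 pairs in that direction. It lost its call without any of replicates 1 to 5.

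Of the 10 lower calls among these symbols, 6 had names made of a Greek letter and CO, a pattern picked out after their values were seen. In Drosophila, alphaCOP to zetaCOP are subunits of the coat of vesicles that carry proteins back from the Golgi, but the gene table gives no product name that would tie these symbols to them. alphaCO (XM_023058960.1) had 41.8, 46.6 and 59.8 CPM in support structures, 42.4 to 77.3 CPM in horn, 75.4 to 114 CPM in carinated margin and 66.5, 74.1 and 91.0 CPM in wing (log2 difference -0.67, SE 0.06, adjusted p = 0.00020, edgeR). The other 5, zetaCO, beta'CO, deltaCO, epsilonCO and betaCO, differed by -0.43, -0.36, -0.30, -0.27 and -0.24, each with no overlap between the 6 support structure and 6 wing libraries. These are small differences, and the median of all transcripts was itself -0.09.

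In 12 genes, 2 transcripts of the same gene were each called by at least 2-fold in opposite directions, out of 1487 genes with 2 or more tested transcripts. Assigning reads to transcripts of 1 gene is uncertain, and the sum over transcripts was called for 9 of the 12. LOC111426163 had XM_023060548.1 at 748, 1564 and 2054 CPM in support structures and 298, 679 and 1008 CPM in wing (log2 difference 1.17, SE 0.11, adjusted p = 0.00027, edgeR). Its XM_023060549.1 had 7.92, 35.0 and 73.2 CPM in support structures and 52.4, 107 and 143 CPM in wing (log2 difference -1.48, SE 0.39, adjusted p = 0.022, edgeR). The tissues overlapped, and the call was lost without replicate 6. It was also lost in a fit of 24 libraries that added horn and carinated margin (adjusted p = 0.20, edgeR). In LOC111419754, XM_023052618.1 had 30.1 to 53.0 CPM in support structures and 8.13 to 15.3 CPM in wing, and XM_023052616.1 had 6.54 to 13.1 CPM in support structures and 16.9 to 25.3 CPM in wing. The more abundant transcript of this gene in support structures was thus the less abundant one in wing. In LOC111418876, XM_023051579.1 was the major transcript in both tissues, at 84.0 to 153 CPM in support structures and 219 to 359 CPM in wing, and XM_023051578.1 went the other way, at 11.7 to 19.3 CPM in support structures and 4.32 to 6.17 CPM in wing. Counting whole genes changed the direction of few: 1779 of the 1864 transcripts called by at least 2-fold that matched a gene were called in the same direction for the gene, and over all 11070 sums tested 53.5% were called.

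To place the prothoracic tissues, each was set against the midpoint between support structures and wing on the log2 scale, in a fit of 24 libraries of 4 tissues with replicate number as a block. The midpoint contrast does not use the difference by which the transcripts were chosen, and a tissue was called nearer support structures or nearer wing where it passed an adjusted p of 0.05 on that side (edgeR quasi-likelihood test). On a scale of position, 0 is the wing mean and 1 the support structure mean. All but 1 of the 5669 called transcripts could be placed. A transcript on neither side by the test need not lie midway. With few or no counts in 2 of the tissues, the contrast can fail to pass though the level is that of wing. LOC111424902 and LOC111419116, with 0 counts in wing, horn and carinated margin, passed for neither tissue. Over all 14565 transcripts in this fit, the contrast passed the test for 3349 in carinated margin (23.0%), above the midpoint for 12% and below it for 11%. In horn it passed for 6920 (47.5%), above the midpoint for 20.6% and below it for 26.9%.

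The carinated margin stood mostly on the wing side, in both directions. Of 2748 transcripts higher in support structures, 999 were nearer wing in carinated margin (36.4%), 262 nearer support structures (9.53%) and 1487 on neither side by the test (54.1%), with a median position of 0.22. Of 2920 lower transcripts, 818 were nearer wing (28.0%), 125 nearer support structures (4.28%) and 1977 on neither side (67.7%), with a median of 0.25. For transcripts of at least 2-fold, the median position in the 5 abundance classes lay between 0.13 and 0.34 among the higher ones and between 0.14 and 0.24 among the lower ones. Of the 15 lower transcripts of 1000 CPM and over, 11 were nearer wing and 0 nearer support structures.

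The thoracic horn went with neither tissue as a whole, and its place depended on direction and abundance. Of the 2748 higher transcripts, 965 were nearer support structures in horn (35.1%) and 884 nearer wing (32.2%), with a median position of 0.44. Of the 2920 lower ones, 1371 were nearer support structures (47.0%) and 500 nearer wing (17.1%), with a median of 0.96. Nearer a tissue includes levels beyond it. By its mean, horn lay beyond support structures for 1406 of the lower transcripts (48.2%), between the 2 tissues for 1038 (35.5%) and beyond wing for 476 (16.3%). Among the higher ones these numbers were 862 (31.4%), 1047 (38.1%) and 839 (30.5%). The counts of nearer transcripts rested on the scaling. With scaling by total counts, the horn's difference from the midpoint shifted by -0.95 on the log2 scale over all transcripts, and the counts became 336 nearer support structures and 1780 nearer wing among the higher transcripts, and 2531 and 121 among the lower ones. With size factors of the RLE (relative log expression) method the shift was 0.05 and the counts were 1017 and 855 among the higher transcripts and 1287 and 554 among the lower ones. The support structure side thus led among the lower transcripts under all 3 scalings, and among the higher transcripts it led under TMM and RLE and not under total counts. A downward shift of all horn values by itself favours the support structure side among the lower transcripts and the wing side among the higher ones. The total-count result is therefore no separate check of the side among the lower transcripts.

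Among the transcripts higher by at least 2-fold alone, the wing side led in horn, with 454 nearer support structures and 650 nearer wing under TMM, 474 and 634 under RLE, and 241 and 1058 under total counts. The horn stood closer to support structures in the more abundant classes of these transcripts. Its median position was 0.15 below 1 CPM, 0.15 between 1 and 10 CPM, 0.41 between 10 and 100 CPM, 0.63 between 100 and 1000 CPM and 0.81 at 1000 CPM and over. Under total counts these medians were lower, at -0.17, -0.17, 0.01, 0.19 and 0.50, in a like order. At 1000 CPM and over 16 of the 26 were nearer support structures and 5 nearer wing, and under total counts 10 and 12, so that the side in the lead depended on the scaling. Among the lower transcripts of at least 2-fold the medians were 0.83, 0.86, 0.56, 0.63 and -0.14 by rising class, and under total counts 1.37, 1.46, 1.11, 1.35 and 0.20. In the top class 13 of 15 were nearer wing in horn and 2 nearer support structures, and the total-count scaling gave 8 and 6.

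**Figure D5:**
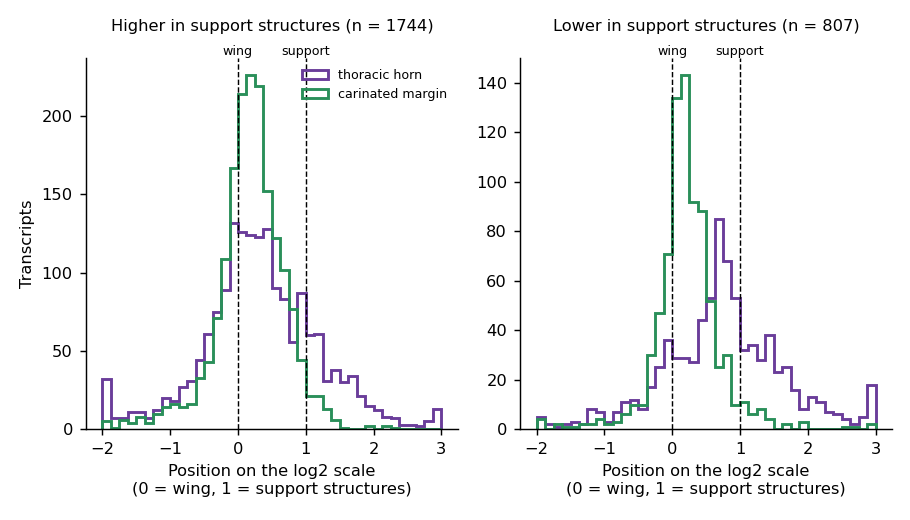
Number of transcripts (vertical axis) by position of carinated margin and of thoracic horn between wing (0) and support structures (1) (horizontal axis), for transcripts called at least 2-fold higher and lower in support structures; values under -2 and over 3 are collected in the end bins. The carinated margin gathers near 0 in both directions (medians 0.20 and 0.19), and the horn is broad, with medians of 0.29 among the higher and 0.73 among the lower transcripts.

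Library type went with these places, since wing and carinated margin were sums of 2 columns and support structures and horn single columns. With columns 1 to 6 alone of wing and carinated margin, an alternative chosen after the data were seen, 351 of 5593 called transcripts were nearer support structures and 1665 nearer wing in carinated margin, and 2226 and 1306 in horn. With the summed libraries these numbers were 387 and 1817 of 5668 in carinated margin and 2336 and 1384 in horn. Horn and carinated margin differed from each other for 3543 of the 5668 (62.5%), 1413 of them higher in horn, against 6158 of all 14565 transcripts (42.3%), 17.2% of all being higher in horn. With total-count scaling they differed for 4425, 513 of them higher in horn.

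Taking both prothoracic tissues at once, the 1744 transcripts higher by at least 2-fold that could be placed were sorted by the side of each. Neither tissue was placed on a side by the test for 407, and for many others only one of them was. Both tissues were nearer wing for 363. The horn was nearer support structures and the carinated margin nearer wing for 172, and both were nearer support structures for 61. The reverse, carinated margin nearer support structures and horn nearer wing, held for 32. For the 807 lower transcripts neither tissue was placed for 211, and the 4 patterns with both tissues placed held for 110, 116, 15 and 6.

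Extremes of the midpoint contrasts were sought among calls of at least 10 CPM on average, with 1 sign in all 6 pairs, no overlap and a gene sum called alike. Within these limits, LOC111415799 (XM_023047667.1) and LOC111418110 (XM_023050564.1) were farthest on the wing side in horn, and carinated margin was nearer wing for both. LOC111415799 had 1222, 1729 and 2216 CPM in support structures, and at most 1.61 CPM in horn, 2.99 CPM in carinated margin and 4.19 CPM in wing (support structures over wing, log2 difference 9.36, SE 0.42, adjusted p = 1.4e-05, edgeR). LOC111418110 had 49.0, 61.7 and 80.5 CPM in support structures, 0 counts in horn, 3 counts in carinated margin and 0.349 to 1.02 CPM in wing (log2 difference 6.58, SE 0.26, adjusted p = 9.0e-06, edgeR). With LOC111418110, LOC111415711 (XM_023047530.1) was farthest on the wing side in carinated margin, at 5.41 to 69.6 CPM in support structures, 0 to 3.47 CPM in horn, at most 0.0602 CPM in carinated margin and 0.0261 to 0.513 CPM in wing.

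Within the same limits, LOC111418568 (XM_023051107.1), with LOC111420100, was farthest on the support structure side in horn. It had 1.59, 33.2 and 111 CPM in support structures, 1408, 2864 and 8611 CPM in horn, at most 0.128 CPM in carinated margin and 1 count in the 6 wing libraries (support structures over wing, adjusted p = 5.9e-06, edgeR). LOC111426781 (XM_023061496.1), with LOC111427029, was farthest within them on the support structure side in carinated margin. It had 38.5, 227 and 1022 CPM in support structures, 0 to 5.51 CPM in horn, 99.2, 196 and 327 CPM in carinated margin and at most 0.108 CPM in wing (log2 difference 12.65, SE 0.62, adjusted p = 1.9e-05, edgeR), and its gene sum differed by 9.59. Support structures and carinated margin overlapped for this transcript, and horn and wing were both far below them.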

How the data were processed

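Epidermal RNA of male prepupae was made into stranded mRNA libraries with an Illumina TruSeq kit, per the labels' protocols. What the authors deposited is 1 table of expected counts, which may be fractional, with 23725 RefSeq transcripts as rows and 60 columns. The tools listed, per the submitters' processing notes, are DESeq2, RSEM 1.3.0, Bowtie2 2.3.2 and Trimmomatic 0.32, with no role given. The strand setting, annotation release and genome build were not given in the sources used here, so overlapping antisense genes may share reads. Of the values, 29.7% lay over 0.001 from a whole number, and no 2 columns were identical.

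Expected counts were rounded. Wing and carinated margin columns k and k+6 were summed, since their deviations correlated at r = 0.113 to 0.261 and 0.121 to 0.187, each of the 12 columns best with its partner. The replicate number paired tissues: all same-numbered correlations passed 0.1 (support structures with wing 0.213 to 0.299), and number was a block in the model. Transcripts were kept by filterByExpr (minimum count 10, minimum total 15), scaled by TMM and fitted in edgeR 4.0.16 under R 4.3.3 (with limma 3.58.1), whose quasi-likelihood F-test was used, with 12 libraries for support structures against wing and 24 for the midpoint contrasts, adjusted by Benjamini-Hochberg over all tested transcripts (threshold 0.05). Tests on simulated counts covered 12900 transcripts, 100 of them changed 2-fold, 100 changed 4-fold and 12700 unchanged. They called 39% of the 2-fold changes, 77% of the 4-fold changes and 0.0394% of the unchanged transcripts. Far fewer transcripts changed there than the 5669 of 13272 called here. The cut of the adjustment differs with that, so these shares do not measure the power of this comparison. Alternatives were no block, RLE or total-count scaling, DESeq2 1.42.0, no filter, other sample sets, gene sums and leaving out each replicate.

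Levels are TMM-scaled CPM. A fold against a tissue at 0 counts used a floor of 3 counts over its 6 libraries. Such floors cover counting error only. The binomial interval takes transcripts as independent draws and does not cover the spread between animals. The labels call the samples biological replicates.

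Of 23725 transcripts, 15104 matched 10670 genes of the RefSeq gene table (assembly IU_Otau_3.0, used for names and gene order only) and held 72.2% of counts. The table used gives no product names or protein sequences, so the lists of genes and cell type markers matched 0 genes, and no sequence is printed. Named transcripts were, per abundance class, the 2 largest and 2 smallest differences among calls with 1 sign in all 6 pairs, no overlap and a gene sum called alike. Added to these were symbols of at least 2-fold, the longest runs and the 3 most abundant opposed isoform pairs. The extremes of the midpoint contrasts were also named, among calls that met the same conditions and averaged at least 10 CPM. The members and lists were chosen with earlier results of these data known.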

Additional observations from a re-analysis of the deposited data

Results flagged for a closer look

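For 56 named transcripts, the 6 libraries of each of 4 tissues were searched for a single library far from the other 5, that is, with a gap to its nearest neighbour, as a share of the whole range, above the critical value of Dixon for 6 values at the 95% level. Of 224 groups, 22 had such a library, and about 1 in 20 is flagged by chance. alphaCO (XM_023058960.1) was flagged in 3 tissues, each time for replicate 5 as the highest: 59.8 CPM in support structures (median 46.6), 114 CPM in carinated margin (median 78.0) and 91.0 CPM in wing (median 74.1).

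In support structures, LOC111422692 was high in replicate 4 at 486 CPM (median 98.0) and LOC111418544 was low in replicate 2 at 119 CPM (median 1153). LOC111418568 was high in replicate 5 at 111 CPM (median 33.2), LOC111421907 in replicate 1 at 351 CPM (median 143), LOC111421103 in replicate 5 at 5.36 CPM (median 1.49) and LOC111422079 in replicate 4 at 5.86 CPM (median 1.48). LOC111428104 was read in replicate 5 alone at 0.447 CPM, and LOC111420652 in replicate 3 alone at 0.0559 CPM.

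In horn, LOC111428486 was low in replicate 4 at 71848 CPM (median 83159), and LOC111426163 (XM_023060549.1) was high in replicate 3 at 51.9 CPM (median 6.95). LOC111413629 was high in replicate 4 at 7.01 CPM (median 0) and LOC111413927 in replicate 2 at 0.367 CPM (median 0.0639).

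In carinated margin, replicate 4 was high for LOC111413629 at 6.11 CPM (median 0) and for LOC111420652 at 3.96 CPM (median 0.831), and replicate 2 for LOC111414353 at 0.896 CPM (median 0.270). In wing, LOC111427831 was high in replicate 2 at 9439 CPM (median 7066), LOC111421898 in replicate 4 at 137 CPM (median 55.6) and LOC111418544 in replicate 5 at 0.139 CPM (median 0.0135). LOC111418568 was read in wing replicate 1 alone, at 0.0293 CPM.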

How the results depend on the processing

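Fitted on transcripts, none of the 5669 calls was called in the opposite direction under any alternative. The count was 4622 without the replicate block, 5470 with RLE and 6020 with total-count scaling (40.1% of them higher, against 48.5%), 6393 by DESeq2, 5518 with no filter, 4944 with wing columns 1 to 6 alone, 4861 with columns 7 to 12 alone, and 4844 to 5075 when a replicate was left out. Without the block, the share called was 17.9% in the lowest abundance class, against 20.3%, and 60.2% in the highest, against 82.7%. Quintiles of mean CPM are other sets of transcripts. There the share was 22.7% in the lowest (2655 transcripts, up to 1.56 CPM) and 66.2% in the highest (2655 transcripts, from 24.2 CPM). Without the block 154 higher and 57 lower transcripts were nearer support structures in carinated margin, against 262 and 125, and with total counts 203 of the lower ones were. For horn, total counts gave 336 transcripts nearer support structures and 1780 nearer wing among the higher ones, and 2531 and 121 among the lower ones; the TMM factors of 0.471 to 0.570 in horn are what that scaling leaves out. With the transcripts of a gene summed, 3 of the opposed isoforms took the sign of their gene: LOC111418876 (XM_023051578.1) at -1.17, LOC111426163 (XM_023060549.1) at 1.01 and LOC111419754 (XM_023052616.1) at 0.67. Of 890 comparisons of named transcripts 872 kept direction and call, and 15 lost the call. Single support structure and horn libraries, at 13.11 to 21.41 M, were shallower than the summed libraries, at 28.53 to 37.86 M, and the part of depth in the lower share of calls below 1 CPM was not tested.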

Other observations

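A few transcripts outside the rule for named transcripts were picked out after their values were seen, all called between support structures and wing by the edgeR quasi-likelihood test. Among the lower transcripts of 1000 CPM and over, LOC111419805 (XM_023052674.1) averaged 773 CPM in support structures, 358 CPM in horn, 2330 CPM in carinated margin and 4220 CPM in wing, and LOC111413874 (XM_023044995.1) averaged 946 CPM in support structures, 710 CPM in horn, 1472 CPM in carinated margin and 1912 CPM in wing. These were the 2 of 15 that stood nearer support structures in horn. LOC111427833 (XM_023063175.1), next to LOC111427831 and LOC111427828, averaged 697 CPM in support structures, 6591 CPM in horn, 7583 CPM in carinated margin and 2976 CPM in wing, so all 3 neighbours were lowest in support structures. LOC111424829 (XM_023058522.1) averaged 4919 CPM in support structures, 26042 CPM in horn, 18268 CPM in carinated margin and 15195 CPM in wing.

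Of 613 non-coding transcripts tested, 196 were called (32.0%), 117 higher and 79 lower in support structures, beside 42.7% of all tested transcripts. The difference between these shares was not tested, and abundance was not matched.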
